A study of Mus musculus with 4 samples.

Results

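The 40 genes described here are interferon-stimulated genes, which were chosen by symbol and were all present among the 18373 genes of the expression table. All 40 passed the filter on low counts and were tested with the other genes, 13628 in all. The cells were primary liver sinusoidal endothelial cells (LSECs), the endothelium that lines the hepatic sinusoids, from 8-week-old Balb/c mice, selected on beads by the endothelial antigen CD146. After 24 h of culture the cells were transfected for 48 h and were collected on day 3. The 2 NC libraries came from cells given a negative control siRNA, and the 2 si*Airn* libraries from cells given siRNA against *Airn*, a long non-coding RNA transcribed from the imprinted *Igf2r* locus. The mice carried no stated transgene or deletion, and no interferon treatment is named for either group. The labels call the 2 libraries of each group biological replicates without saying whether they came from separate mice or cultures, so the p-values measure the spread between these libraries. The labels of both si*Airn* libraries name siAirn1, while the study's methods name 2 siRNAs for the RNA-seq. Which of the study's siRNAs each si*Airn* library received was therefore not settled by the sources used here.

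Type I interferons bind the receptor pair IFNAR1 and IFNAR2, whose kinases JAK1 and TYK2 phosphorylate STAT proteins. STAT2 and IRF9 are subunits of the complex ISGF3, which binds the interferon-stimulated response element (ISRE) in the promoters of interferon-stimulated genes. Interferon gamma acts at gamma-activated sites (GAS). The genes encode sensors of foreign nucleic acid, transcription factors that widen the response, enzymes and GTPases that restrict viruses and intracellular parasites, and the ubiquitin-like modifier ISG15 with its enzymes. Many are also expressed at a low tonic level without added interferon.

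The libraries held between 17308382 and 18371959 counts, so that 1 count was 0.0553 to 0.0584 CPM (counts scaled to a common library size). The counts of *Airn* itself were 7 and 3 (NC) and 11 and 9 (si*Airn*), a ratio of 1.97 with an exact 95% interval of 0.88 to 4.71 that covers counting error only. These counts are too few to show a fall or a rise of the targeted RNA, and every direction given here is between groups as labelled. All 10 LSEC and endothelial markers passed the count filter, and 7 of them were lower in si*Airn*, also with the trends of GC content and transcript length removed (a fit described below). In that fit *Stab2* was called lower as well (log2 fold change -0.40, edgeR adjusted p = 0.0427). The summed level below is over all 10 markers. It was 7191 and 6576 CPM in NC and 5365 and 4573 CPM in si*Airn*.

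No interferon-stimulated gene was higher in si*Airn* and 9 of 40 were lower at an adjusted p under 0.05 (edgeR quasi-likelihood test, Benjamini-Hochberg adjustment over all genes tested). The 9 were *Irf7*, *Ifit3*, *Zbp1*, *Oas3*, *Bst2*, *Oasl1*, *Isg15*, *Ifi35* and *Xaf1*. Of all 13628 genes, 1167 (8.56%) were called lower and 1127 (8.27%) higher, against 22.5% of the 40 genes called lower. At an unadjusted p under 0.05, 13 of the 40 were lower and 2, *Ifih1* and *Dtx3l*, were higher, where 17.2% of all genes were lower (2343) and 16.8% higher (2288). DESeq2 called 7 lower and 0 higher: it left out *Oas3*, *Ifi35* and *Xaf1* (DESeq2 adjusted p = 0.114, 0.0812 and 0.0828) and called *Oas1a* (0.0488). In the whole table DESeq2 called 932 lower and 903 higher of the 13628 genes, 2907 of which had no DESeq2 adjusted p and could not be called. When genes were instead required to pass the study's own limits (1.4-fold, with p below 0.05 before adjustment), 3 genes were lower (*Irf7*, *Ifit3* and *Zbp1*) and 0 higher, beside 643 (4.72%) and 715 (5.25%) of all genes.

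The 40 genes had a median log2 fold change of -0.125, beside 0.001 for all genes tested, and 32 of them had values below 0. Without NC replicate 1 this number was 21, and without si*Airn* replicate 2 it was 26, with medians of -0.02 and -0.04. In 16 genes both si*Airn* libraries lay below both NC libraries, and in 2 genes both lay above. Among all genes, 31.9% were separated in the lower direction (4341 genes) and 30.9% in the higher direction (4207 genes). The summed level of the 40 genes was 9053 and 8317 CPM in NC and 7787 and 7528 CPM in si*Airn*. The groups did not overlap in this sum, and the most abundant genes by CPM, *Oasl2*, *Irf7* and *Bst2*, weigh most in it. Of these, *Irf7* and *Bst2* were among the 9 called lower, and *Oasl2* was not. The groups did overlap in the median log2 ratio to the NC mean over the 40 genes. This was 0.08 and -0.08 in the NC libraries and -0.04 and -0.23 in the si*Airn* libraries.

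**Figure D1:**
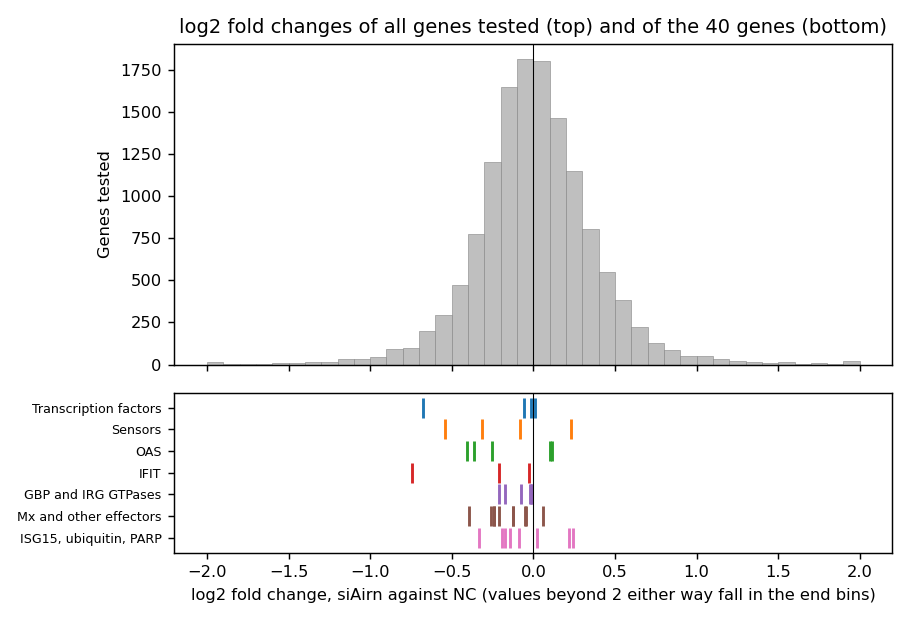
Distribution of log2 fold changes (si*Airn* against NC). The upper panel counts the 13628 genes tested per bin, and each tick in the lower panel is one interferon-stimulated gene in its role group. Of the 40 genes, 32 lie below 0, and *Ifit3* and *Irf7* lie farthest to the left.

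The values changed when single libraries were left out, and the calls changed when trends with base composition were removed. Without NC replicate 1 the median log2 fold change of the 40 genes was -0.02, and without NC replicate 2 it was -0.24. Calls are not compared for these fits, which leave a lone library in 1 group. Across the genes tested, log2 fold change ran with GC content of the longest transcript (Spearman's rho -0.333) and with its length (rho 0.364). These are descriptions across genes, which share the same 4 libraries. In a fit with these trends removed, chosen after seeing the data, *Irf7*, *Ifit3* and *Zbp1* stayed lower and 0 genes were higher (edgeR; unadjusted p under 0.05 in 13 lower and 0 higher). In that fit 652 of 12905 genes (5.05%) were called lower and 388 (3.01%) higher, and 15.2% were lower and 13.0% higher at an unadjusted p under 0.05.

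**Figure D2:**
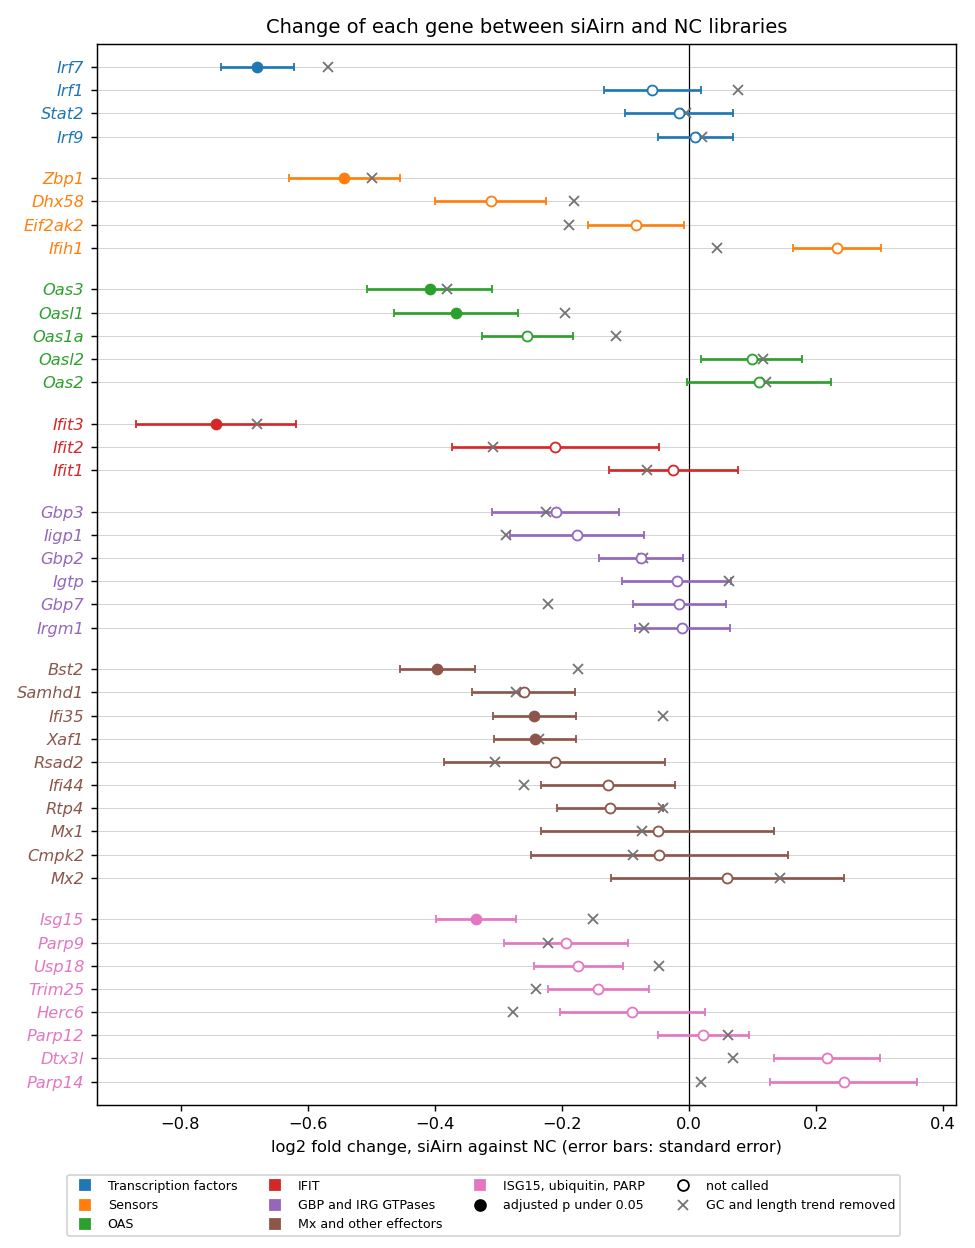
Log2 fold change of each gene (si*Airn* against NC) with its standard error, by role group. Filled circles mark the 9 genes with an adjusted p under 0.05, all to the left of 0, open circles the other 31, and crosses the value after the GC and length trends were removed.

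Promoter stretches of 4 members are shown to set genes that fell beside one that did not: *Irf7* and *Ifit3* had the largest falls, *Isg15* is a classical ISRE gene that fell less, and *Irgm1* was near 0. Each runs from 170 bases before the RefSeq transcription start to 20 bases after it, 5′ to 3′ on the gene's strand (build GRCm38.p6). Capitals mark matches to an ISRE core, spelled GAAANNGAA on either strand. The stretches are chr7:141266405-141266594 (minus strand) for *Irf7*, chr19:34583359-34583548 (plus strand) for *Ifit3*, chr4:156200799-156200988 (minus strand) for *Isg15* and chr11:48871401-48871590 (minus strand) for *Irgm1*.
Irf7: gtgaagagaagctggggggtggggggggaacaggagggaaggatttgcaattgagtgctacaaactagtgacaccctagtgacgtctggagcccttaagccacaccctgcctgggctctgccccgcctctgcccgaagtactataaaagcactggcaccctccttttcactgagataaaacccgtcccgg
Ifit3: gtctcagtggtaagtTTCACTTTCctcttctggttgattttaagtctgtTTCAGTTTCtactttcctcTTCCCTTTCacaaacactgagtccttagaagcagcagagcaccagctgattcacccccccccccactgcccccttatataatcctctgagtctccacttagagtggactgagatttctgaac
Isg15: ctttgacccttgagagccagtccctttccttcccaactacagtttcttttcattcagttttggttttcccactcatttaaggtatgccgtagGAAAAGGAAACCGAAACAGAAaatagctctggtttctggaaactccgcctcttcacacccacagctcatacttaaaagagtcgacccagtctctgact
Irgm1: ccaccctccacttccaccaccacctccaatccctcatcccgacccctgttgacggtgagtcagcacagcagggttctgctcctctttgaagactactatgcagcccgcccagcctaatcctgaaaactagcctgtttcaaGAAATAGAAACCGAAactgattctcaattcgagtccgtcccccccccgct
*Ifit3* held 3 matches, *Isg15* held 3 that overlap, *Irgm1* held 2 that overlap and *Irf7* held 0 in this stretch. *Isg15*, which was called lower in the main test, and *Irgm1*, which was not, both hold overlapping ISRE cores. With the GC and length trends removed neither was called (log2 fold changes of -0.15 and -0.07).

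Of the 40 genes, 30 had a RefSeq promoter entry (250 bases before to 50 after the start) and were searched for the ISRE core and for a GAS core, spelled TTCNNNGAA, which reads the same on both strands. Matches of the 2 patterns may share bases, as they do in *Bst2*. The ISRE core was found in 17 of the 30 genes (56.7%), beside 9.76% of the 27025 genes in the promoter table. The GAS core was found in 9 of the 30 (30%), beside 9.55%. Among the 8 genes that were called lower and had an entry, 4 held an ISRE core: *Ifit3*, *Isg15*, *Oas3* and *Bst2*. The other 4, *Irf7*, *Oasl1*, *Ifi35* and *Xaf1*, had no match to these letters in this window. The 5 GTPase genes with an entry, *Gbp2*, *Gbp3*, *Gbp7*, *Igtp* and *Irgm1*, all held an ISRE core. None was called, and among all genes tested 8.56% were called lower and 8.27% higher. Whether the calls go with the motif was not tested.

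**Figure D3:**
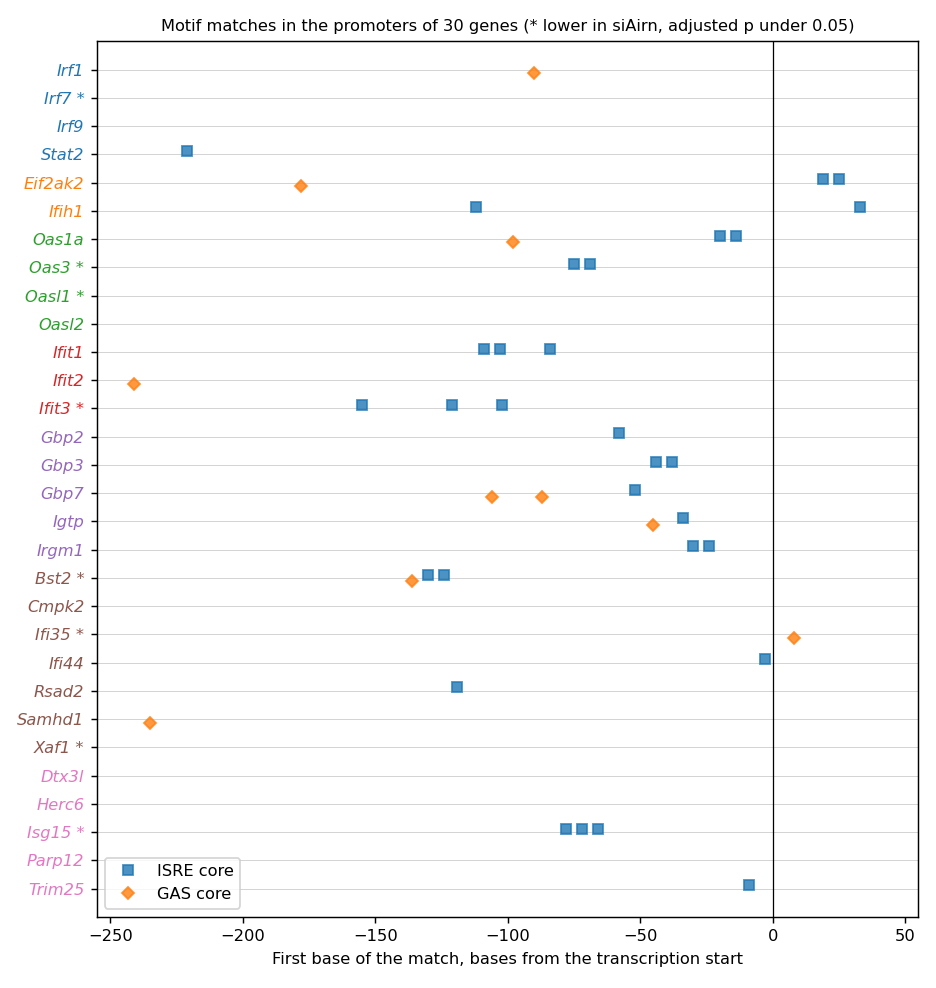
Position of ISRE core (squares) and GAS core (diamonds) matches in the promoters of 30 genes, in bases from the transcription start. Asterisks mark the 8 genes called lower in si*Airn*, of which 4 show an ISRE core, and the 5 GBP and IRG genes, none called, show one each or more.

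Of the 4 transcription factors, only *Irf7* was called. *Irf7* encodes the factor that amplifies type I interferon transcription and is itself interferon-inducible. It measured 1044 and 1021 CPM in the NC libraries and 654 and 636 CPM in the si*Airn* libraries. The groups were far apart and the replicates close, with a log2 fold change of -0.68 ± 0.06 (SE, n = 2 against 2 libraries, edgeR adjusted p = 0.00496), a level 1.6-fold lower. *Irf7* was called in all 10 alternatives that kept every library, with log2 fold changes from -0.69 to -0.57.

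The genes for the ISGF3 subunits and for IRF1 were not called. *Stat2*, which encodes the STAT particular to ISGF3, measured 192 and 166 CPM in NC and 183 and 171 CPM in si*Airn* (log2 fold change -0.02 ± 0.09, SE). *Irf9*, for its DNA-binding subunit, measured 149.7 and 147 CPM against 149 and 149.9 CPM (log2 fold change 0.01 ± 0.06, SE). *Irf1*, for a factor induced mainly by interferon gamma, measured 71.1 and 63.8 CPM against 65.7 and 64.0 CPM (log2 fold change -0.06 ± 0.08, SE). In these 3 genes the si*Airn* libraries overlapped the NC libraries, and the sign of each turned under at least one alternative. Their difference from *Irf7* was not tested.

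Among the 4 sensors, 1 was called. *Zbp1* encodes a sensor of Z-form nucleic acid that triggers necroptosis. It measured 77.6 and 78.4 CPM in NC and 49.2 and 57.9 CPM in si*Airn*, with a log2 fold change of -0.54 ± 0.09 (SE, n = 2 against 2, edgeR adjusted p = 0.0127). Both si*Airn* libraries were below both NC libraries, and the 2 si*Airn* libraries differed more than the 2 NC libraries did.

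The cytosolic RNA sensors showed opposite signs. *Dhx58*, which encodes LGP2, a regulator of RIG-I-like receptors, measured 58.2 and 51.0 CPM in NC and 45.0 and 43.0 CPM in si*Airn* (log2 fold change -0.31 ± 0.09, SE, edgeR adjusted p = 0.052). *Ifih1*, which encodes MDA5, a receptor for long double-stranded RNA, measured 119 and 109 CPM against 133 and 135 CPM (log2 fold change 0.23 ± 0.07, SE, edgeR adjusted p = 0.0621). In both the groups were separated and neither was called. After the GC and length trends were removed, *Ifih1* had a log2 fold change of 0.04 and *Dhx58* of -0.18. *Eif2ak2*, which encodes PKR, the kinase that halts translation on double-stranded RNA, measured 110 and 106 CPM in NC and 107 and 96.0 CPM in si*Airn*, and the groups overlapped.

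The oligoadenylate synthetase (OAS) family makes the messenger that activates RNase L, and its OASL members act in RNA sensing and antiviral defence. Of 5 members, 2 were called lower. *Oas3* measured 21.5 and 20.7 CPM in NC and 16.4 and 15.3 CPM in si*Airn* (log2 fold change -0.41 ± 0.10, SE, n = 2 against 2, edgeR adjusted p = 0.0348). *Oasl1*, whose protein is known to inhibit translation of *Irf7* mRNA, measured 242 and 201 CPM against 179 and 164 CPM (log2 fold change -0.37 ± 0.10, SE, edgeR adjusted p = 0.0463). In each gene both si*Airn* libraries lay below both NC libraries. With the GC and length trends removed, *Oas3* kept its size but not its call (log2 fold change -0.38, edgeR adjusted p = 0.0575), and *Oasl1* had a log2 fold change of -0.19 (edgeR adjusted p = 0.272). Neither was called by limma (limma adjusted p = 0.0869 for *Oas3* and 0.0875 for *Oasl1* with a pseudocount of 1), and without NC replicate 1 *Oasl1* had a log2 fold change of -0.23. *Oas3* was among the least abundant of the 40 genes.

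The remaining OAS genes were not called. *Oasl2*, the most abundant of the family by FPKM (a level per transcript length and library size), measured 1225 and 1260 CPM in NC and 1233 and 1429 CPM in si*Airn* (log2 fold change 0.10 ± 0.08, SE). *Oas2* measured 18.9 and 17 CPM against 18.1 and 20.5 CPM (log2 fold change 0.11 ± 0.11, SE). *Oas1a* measured 227 and 205 CPM against 178 and 185 CPM, with separate groups (log2 fold change -0.25 ± 0.07, SE, edgeR adjusted p = 0.0552). Of the 50-base windows of *Oas1a*, 57.6% occur in other genes of the family, so its reads cannot be assigned with certainty. With its counts summed with those of *Oas1g*, a step chosen after seeing the data, the log2 fold change was -0.24 ± 0.07 (SE, edgeR adjusted p = 0.0557).

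The IFIT proteins bind viral RNA and block its translation, and their 3 genes lie close together. *Ifit3* fell and had the largest change of the 40 genes. It measured 342 and 275 CPM in NC and 201 and 167 CPM in si*Airn*, with a log2 fold change of -0.74 ± 0.13 (SE, n = 2 against 2, edgeR adjusted p = 0.0138). The groups were separate, and replicate 1 was above replicate 2 in each group. Of the 50-base windows of *Ifit3*, 51.2% occur in other genes, chiefly its near-identical copy *Ifit3b*. Summed over both genes, a step chosen after seeing the data, the level was 530.5 and 420.4 CPM in NC and 346 and 282 CPM in si*Airn*, and the log2 fold change was -0.60 ± 0.13 (SE, edgeR adjusted p = 0.028).

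The neighbouring genes were not called in the main test. *Ifit1* measured 143 and 123 CPM in NC and 140.2 and 121 CPM in si*Airn* (log2 fold change -0.02 ± 0.10, SE). *Ifit2* measured 138 and 100.1 CPM against 115 and 91.6 CPM (log2 fold change -0.21 ± 0.16, SE, edgeR adjusted p = 0.408). In both genes the groups overlapped, and the difference between replicates of one group was as large as that between the groups or larger. In a fit with a term for replicate number (the replicate block), *Ifit2* was called lower (log2 fold change -0.20, edgeR adjusted p = 0.0133). That fit called 2436 of all 13628 genes lower, and the other genes it added are named at the end. The difference in response between *Ifit3* and its neighbours was not tested.

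The guanylate-binding proteins (GBPs) and immunity-related GTPases (IRGs) attack the vacuoles of intracellular parasites and bacteria, and respond strongly to interferon gamma. None of their 6 genes was called by edgeR or DESeq2, and 0 had an unadjusted p under 0.05 (edgeR). Among all genes, edgeR called 8.56% lower and 8.27% higher, and 17.2% were lower at an unadjusted p under 0.05. With the GC and length trends removed, 2 of the 6 were lower at an unadjusted p under 0.05 (edgeR). The share of all genes there was 15.2%, and 0 of the 6 were called. With the replicate block, *Gbp3* and *Iigp1* were called lower (edgeR adjusted p = 0.00931 and 0.0199). In the main test the log2 fold changes of the 6 genes ran from -0.21 to -0.01. *Irgm1*, for a regulator of the other IRGs and the most abundant of the group by FPKM, measured 348 and 311 CPM in NC and 336 and 318 CPM in si*Airn* (log2 fold change -0.01 ± 0.08, SE). *Gbp3* had the largest change, with 195 and 162.3 CPM against 162.3 and 147 CPM (log2 fold change -0.21 ± 0.10, SE, edgeR adjusted p = 0.191).

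The other GTPase genes lay closer to 0. *Igtp*, for an IRG that targets the vacuole of *Toxoplasma*, measured 112 and 96.1 CPM in NC and 105 and 99.7 CPM in si*Airn*, and *Gbp7* measured 92.3 and 84.3 CPM against 89.8 and 85.0 CPM. In these 2 genes the si*Airn* values fell between the NC values. *Gbp2* (log2 fold change -0.07 ± 0.07, SE) had separate groups by a small margin, and *Iigp1* (log2 fold change -0.18 ± 0.10, SE) had overlapping ones.

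Among the 10 genes of Mx proteins and other effectors, 3 were called lower. *Bst2* encodes tetherin, which holds budding virions at the cell surface, and had the highest FPKM of the 40 genes. It measured 849 and 884 CPM in NC and 648 and 669 CPM in si*Airn* (log2 fold change -0.40 ± 0.06, SE, n = 2 against 2, edgeR adjusted p = 0.0108). Its groups were separate by far more than the replicates differed. With the GC and length trends removed, the log2 fold change was -0.17 (edgeR adjusted p = 0.0875).

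*Xaf1*, whose protein promotes apoptosis by opposing XIAP, and *Ifi35* fell by smaller amounts. *Xaf1* measured 116 and 114 CPM in NC and 99.96 and 94.5 CPM in si*Airn* (log2 fold change -0.24 ± 0.06, SE, edgeR adjusted p = 0.0451). *Ifi35* measured 114 and 120.0 CPM against 100.5 and 96.8 CPM (log2 fold change -0.24 ± 0.07, SE, edgeR adjusted p = 0.0463). Both genes had separate groups. Of the exonic bases of *Ifi35*, 16.8% lie under a gene on the opposite strand, *Gm11626*, and the use of strand in counting is not given in the sources used here. After the GC and length trends were removed, *Ifi35* had a log2 fold change of -0.04 and *Xaf1* of -0.24, and neither was called.

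The other effectors were not called. *Samhd1*, for a dNTP hydrolase that starves reverse transcription, measured 147 and 129 CPM in NC and 119 and 112 CPM in si*Airn* (log2 fold change -0.26 ± 0.08, SE, edgeR adjusted p = 0.0698), with separate groups. *Rsad2*, for viperin, which makes a chain-terminating nucleotide, measured 317 and 224 CPM against 262 and 205 CPM (log2 fold change -0.21 ± 0.17, SE). *Cmpk2*, the gene beside *Rsad2*, for a mitochondrial nucleotide kinase, measured 124 and 81.3 CPM against 113 and 85.5 CPM (log2 fold change -0.05 ± 0.20, SE). In *Rsad2* and *Cmpk2* the replicates of each group differed by more than the group means did. With the replicate block *Rsad2* was called lower (edgeR adjusted p = 0.0108).

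*Ifi44* (log2 fold change -0.13 ± 0.10, SE) and *Rtp4* (log2 fold change -0.12 ± 0.08, SE) were abundant, at 176 FPKM each over the 4 libraries, and had overlapping groups. *Mx1*, an antiviral GTPase gene that is defective in most inbred mouse strains, measured 9.10 and 8.18 CPM in NC and 9.63 and 7.07 CPM in si*Airn*. *Mx2* measured 12.7 and 9.06 CPM against 12.2 and 10.5 CPM. Both Mx genes were at the low end of the list, and their groups overlapped.

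Of the 8 genes of the ISG15 system, ubiquitin ligases and PARPs, 1 was called. *Isg15* encodes the ubiquitin-like protein that is attached to targets during the response. It measured 297 and 279 CPM in NC and 227 and 229.5 CPM in si*Airn* (log2 fold change -0.33 ± 0.06, SE, n = 2 against 2, edgeR adjusted p = 0.0182), with separate groups. With the GC and length trends removed its log2 fold change was -0.15 (edgeR adjusted p = 0.269). The 6 called genes that were lost in that fit, *Isg15*, *Bst2*, *Ifi35*, *Oas3*, *Oasl1* and *Xaf1*, had GC contents of 52.8%, 55.3%, 54.1%, 54.6%, 56.3% and 47.4%. The 3 that were still called, *Irf7*, *Zbp1* and *Ifit3*, had 55.4%, 51.0% and 47.5%.

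The enzymes of the ISG15 system were not called. *Usp18*, for the protease that removes ISG15 and restrains the receptor, measured 224 and 205 CPM in NC and 195 and 186 CPM in si*Airn* (log2 fold change -0.17 ± 0.07, SE, edgeR adjusted p = 0.131), with separate groups. *Herc6*, for the mouse ISG15 ligase, measured 79.95 and 63.7 CPM against 70.6 and 64.3 CPM and overlapped. *Trim25*, for a ubiquitin ligase in RIG-I signalling, measured 137 and 119.5 CPM against 118 and 115 CPM (log2 fold change -0.14 ± 0.08, SE).

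The partner genes *Dtx3l* and *Parp9*, whose proteins form a ubiquitin ligase complex, had values of opposite sign. *Dtx3l* measured 98.4 and 85.6 CPM in NC and 109.6 and 104 CPM in si*Airn* (log2 fold change 0.22 ± 0.08, SE, edgeR adjusted p = 0.116), and *Parp9* measured 123 and 105 CPM against 106 and 93.4 CPM (log2 fold change -0.19 ± 0.10, SE, edgeR adjusted p = 0.214). Neither was called, and the genes overlap each other on opposite strands. *Parp14* had the largest positive value of the 40 genes, with 252 and 204 CPM in NC and 290.1 and 250.2 CPM in si*Airn* (log2 fold change 0.24 ± 0.12, SE, edgeR adjusted p = 0.187). Its groups overlapped, and its value was 0.02 after the GC and length trends were removed. *Parp12* measured 197 and 180 CPM against 197 and 186 CPM (log2 fold change 0.02 ± 0.07, SE).

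**Figure D4:**
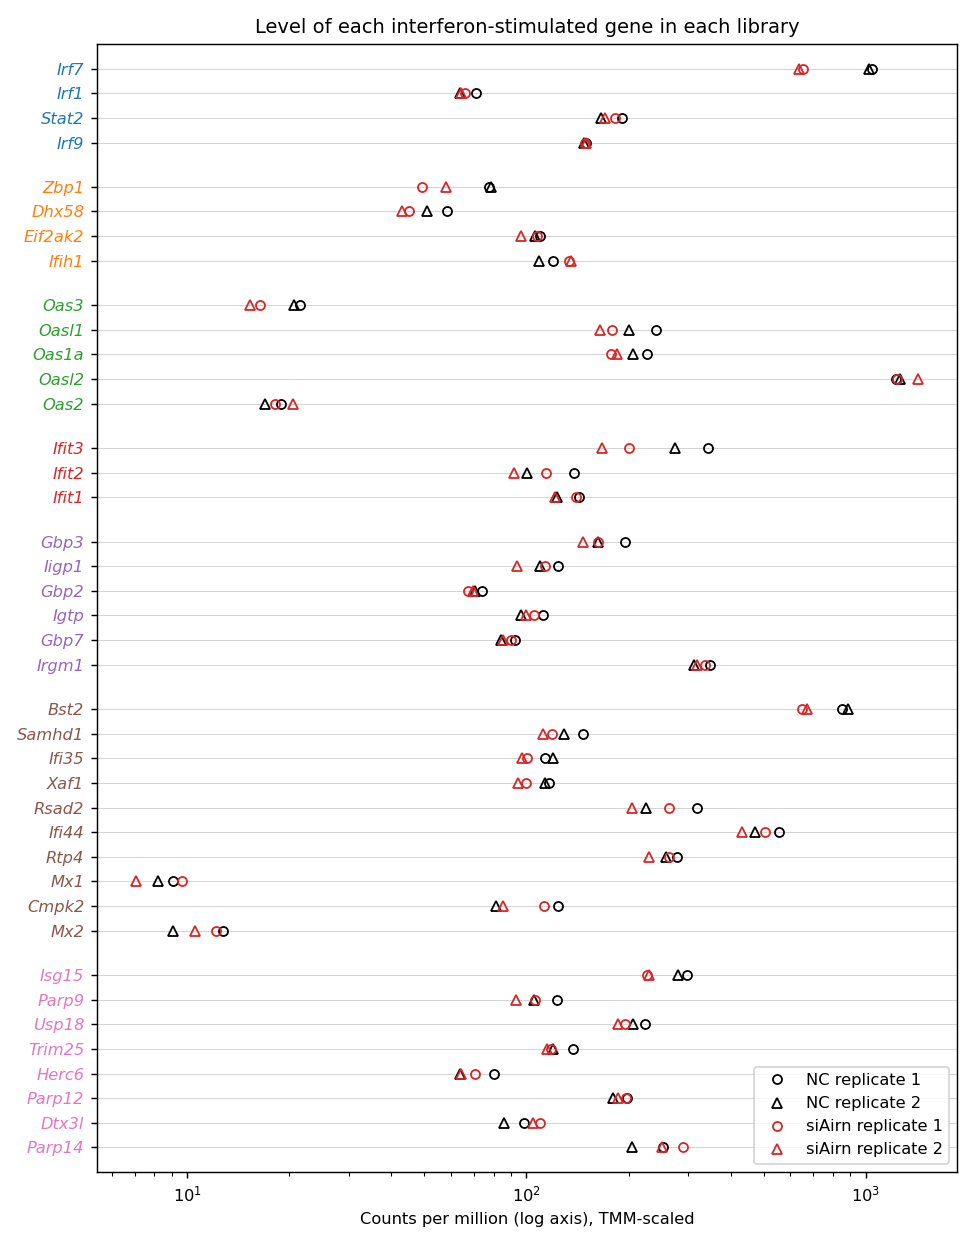
Level of each gene in CPM (log axis) in each library. Black symbols are NC and red symbols si*Airn*, circles replicate 1 and triangles replicate 2. The red symbols lie to the left of the black ones in 16 genes, among them *Irf7*, *Ifit3*, *Zbp1* and *Bst2*.

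Per transcript length, the 40 genes spanned from *Mx1* at 2.96 FPKM to *Bst2* at 1174 FPKM (mean over the 4 libraries), with a median of 46.8 FPKM. After *Bst2* came *Irf7* at 491 FPKM, *Isg15* at 406 FPKM and *Oasl2* at 336 FPKM. *Bst2* was at 1288 and 1342 FPKM in NC and 1027 and 1040.1 FPKM in si*Airn*. *Irf7* was above *Isg15* in all 4 libraries, with 605 and 589 FPKM in NC against 459 and 432 FPKM for *Isg15*, and 392 and 377 FPKM in si*Airn* against 367 and 364 FPKM. *Isg15* was above *Oasl2* in NC, but in si*Airn* replicate 2 *Oasl2* was at 372 FPKM. At the low end, *Mx2*, *Oas2*, *Oas3* and *Mx1* were at most 6.03 FPKM in every library.

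Replicates differed in the same direction in both groups for many of the genes. Replicate 1 was above replicate 2 in 36 of the 40 genes in NC and in 31 in si*Airn*, and in 30 genes (75%) in both. Among the 9872 genes with a mean level at or above that of *Mx1*, the lowest of the 40, this held for 34.1%. The median log2 ratio of replicate 1 to replicate 2 over the 40 genes was 0.16 in NC and 0.08 in si*Airn*, beside 0.00 and 0.01 for those genes. *Cmpk2* had the widest ratio in NC, 0.60 on the log2 scale, with 0.40 in si*Airn*. *Rsad2* followed with 0.50 and 0.35, then *Mx2* with 0.47 and 0.20 and *Ifit2* with 0.47 and 0.32. Across the 40 genes the 2 ratios had a Pearson's r of 0.69, beside 0.45 for those 9872 genes, a description across genes that share the same libraries. *Irf7* (0.03 and 0.04), *Irf9* and *Bst2* hardly differed between replicates.

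**Figure D5:**
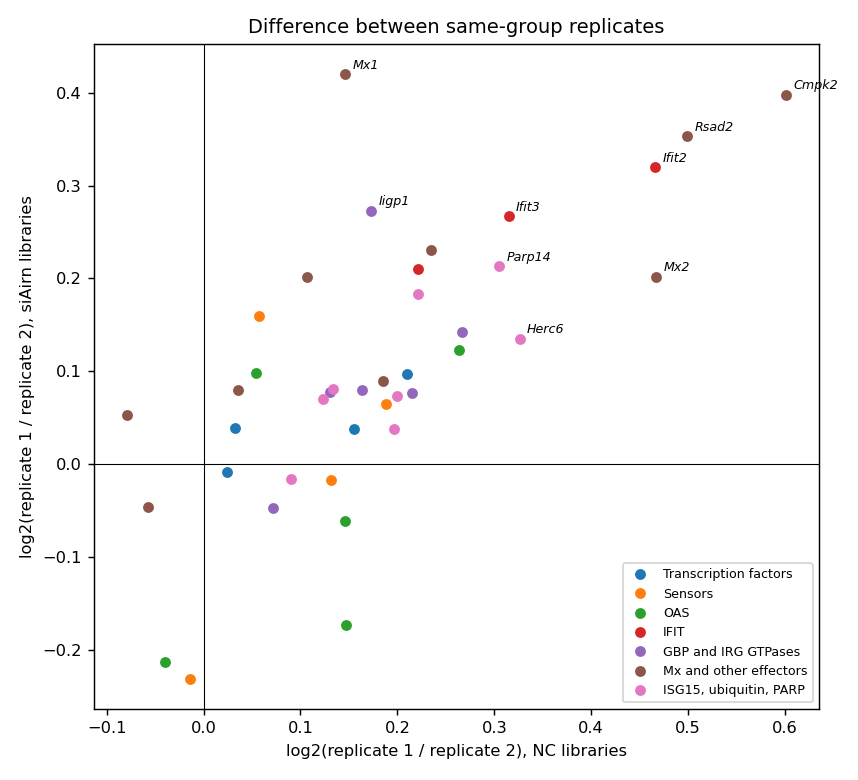
Log2 ratio of replicate 1 to replicate 2 in the NC libraries (horizontal) and in the si*Airn* libraries (vertical) for each of the 40 genes, coloured by role group. Of the points, 30 lie in the upper right, with *Cmpk2*, *Rsad2* and *Ifit2* farthest out.

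Upstream of these genes, the interferons themselves were at the limit of detection. For *Ifnb1* the NC libraries held 7 and 6 counts and the si*Airn* libraries 5 and 6, while *Ifna4*, *Ifnk* and *Ifne* had at most 3 counts in any library. None of the 5 receptor genes tested was called (edgeR; unadjusted p under 0.05 in 0; DESeq2 called 0). *Ifnar1* measured 106.3 and 103 CPM in NC and 106.3 and 104 CPM in si*Airn*, and *Ifnar2* 174 and 187 CPM against 166 and 167 CPM. Of 9 genes for signal transducers, 3 were lower: *Irf8*, for a myeloid and interferon gamma-responsive factor (log2 fold change -0.56 ± 0.09, SE, edgeR adjusted p = 0.0137), the kinase gene *Jak1* (log2 fold change -0.24 ± 0.06, SE, edgeR adjusted p = 0.0333) and *Irf3*, named after its values were seen (log2 fold change -0.29 ± 0.08, SE, edgeR adjusted p = 0.0442).

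In all, 86 further pathway genes and interferon targets were tested. Of these, edgeR called 16 lower and 0 higher, beside 8.56% and 8.27% of all genes. At an unadjusted p under 0.05 (edgeR), 29 were lower and 4 higher, beside 17.2% and 16.8% of all genes. DESeq2 called 13 lower and 0 higher, beside 932 lower and 903 higher of all 13628 genes, 2907 of which had no DESeq2 adjusted p. The median log2 fold change of the 86 genes was -0.10. The edgeR calls included *Tmem173*, for the adaptor STING (log2 fold change -0.31), *Trex1*, for a DNase that limits STING signalling (-0.45), and *Irf2bp1*, for a corepressor (-0.33). Of 55 further interferon targets, 10 were lower: *Isg20* (-0.65), *Ifitm2* (-0.47), *Lgals3bp* (-0.43), *Gbp5* (-0.42), *Ly6e* (-0.41), *Tap1* (-0.38), *Psmb10* (-0.34), *Lgals9* (-0.34), *Ifitm3* (-0.32) and *Tgtp2* (-0.30). With the GC and length trends removed, 5 of the 16 were still called (*Jak1*, *Irf8*, *Ly6e*, *Lgals3bp* and *Tgtp2*), and the log2 fold changes of the 16 ran from -0.51 to -0.10. Of the 11 that lost their call, *Psmb10* (-0.11) and *Irf3* (-0.10) were nearest to 0, while *Gbp5* (-0.42) and *Isg20* (-0.41) had the largest values. *Gbp5* was the GBP gene called, while *Gbp4*, *Gbp6*, *Gbp8* and *Gbp9* in the same list were not.

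In bulk libraries, fewer cells of a type and less RNA per cell cannot be told apart. Macrophages also express many interferon-stimulated genes, and Kupffer cell and macrophage markers moved the same way: 8 of 14 were lower, 12 of 12 tested had values below 0, and the summed level was 248 and 317 CPM in NC and 189 and 159 CPM in si*Airn*. *Clec4f*, a Kupffer cell marker, had a log2 fold change of -1.43. With the GC and length trends removed, 2 of the 8 were still called, *Clec4f* and *Fcgr1* (edgeR adjusted p = 0.0313 and 0.0407), and those no longer called kept values below 0, such as -0.85 for *Adgre1* and -0.46 for *Lyz2*. None of the 14 was at 0 in all libraries. Stellate cell and fibroblast markers (3 of 10 higher) summed to 1122 and 1329 CPM in NC and 1368 and 1781 CPM in si*Airn*, and hepatocyte markers (1 of 8 higher) to 528 and 687 CPM against 749.5 and 974 CPM. *Siglech*, a marker of plasmacytoid dendritic cells, which are strong interferon producers, had at most 11 counts in any library. Of that list of 8, 3 were tested, all with values below 0, and 0 were called, and the summed level was 432 and 416 CPM in NC and 378 and 346 CPM in si*Airn*, nearly all of it from *Tcf4*, which endothelial cells also express. Lymphocyte and NK cell markers (0 of 4 tested called, 1 of them with a value below 0) summed to 12.1 and 11 CPM in NC and 11.3 and 12.1 CPM in si*Airn*, and neutrophil and monocyte markers (0 of 2 tested called, *Mpo* at 0 in all libraries) to 5.66 and 4.53 CPM against 6.53 and 4.18 CPM. The part of these cells in the fall of the 9 genes was not tested.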

How the data were processed

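Primary LSECs were profiled by RNA-seq (single-end reads of 50 bases) in 2 NC and 2 si*Airn* libraries, grouped by their labels. The authors deposited 1 table with estimated counts, not normalized, and FPKM values for each library. BWA, Bowtie2 and RSEM and the human build hg19 are named in the submitters' processing notes without roles or versions, and the build behind these mouse counts is not given in the sources used here. Authors' mean columns were not used.

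The deposited estimated counts were rounded and tested in R 4.3.3 with edgeR 4.0.16 (TMM, filterByExpr, glmQLFit and glmQLFTest, no covariate), with Benjamini-Hochberg adjustment over 13628 genes. CPM values are scaled by TMM, and a call is an adjusted p under 0.05. The 2 libraries a group limit the precision; log2 ratios between replicates add 0.5 CPM. The choice of the 40 genes, gene lists and naming rule was made with earlier results of these data known. The rule names all 40 genes, *Airn*, *Ifnar1*, *Ifnar2*, the marker lists and up to 15 called pathway genes; another gene that it names is not reported here. The test was run on simulated data with 100 genes changed by 0.5 and 100 by 1 on the log2 scale. It found 55 and 85 of these, and beside them called 34 unchanged genes, with 13468 tested. The simulated libraries varied independently, without trends of GC content or length, and held no change smaller than 0.5. The run therefore gives no error rate for the calls made here. Alternatives used DESeq2 1.42.0 and limma 3.58.1 on log2(FPKM + 1) or log2(FPKM + 0.1), for genes with at least 1 FPKM, and other scalings, filters and library subsets. The removal of GC and length trends and the summed gene pairs were added after seeing the data. Promoters came from RefSeq (GRCm38.p6), with 30 of 40 genes matched by gene ID. GC content and shared windows came from GENCODE M21, for 94.7% of genes tested.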

Additional observations from a re-analysis of the deposited data

How the results depend on the processing

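The number of the 40 genes called lower was 9 and became 18 with the replicate block and 3 with the GC and length trends removed. When a library is left out, 1 group holds a lone library, which is assumed to vary like the other group. For those fits only log2 fold changes are given here. The number called higher was 0 and became 1 under the likelihood-ratio test (*Ifih1*) and 3 with the replicate block (*Ifih1*, *Dtx3l* and *Parp14*). The further genes called lower with the block were *Ifit2*, *Rsad2*, *Usp18*, *Dhx58*, *Samhd1*, *Gbp3*, *Oas1a*, *Parp9* and *Iigp1*. With the study's threshold the count lower was 3, and it was 2 under limma. The labels give same-numbered libraries nothing in common but a number. Their deviations had a correlation of 0.27 over all genes tested and 0.45 over genes at the level of the 40 or above, and the block moved the calls in the whole table from 2294 to 4841 (2436 lower and 2405 higher of 13628). Pathway genes called lower became 9 under limma on log2(FPKM + 1) and log2(FPKM + 0.1), 33 with the block, 8 with the length trend removed, 7 with GC and length removed, and 0 to 21 with libraries left out. Pathway genes called higher became 1 with at least 10 counts in every library, 2 under the likelihood-ratio test and both limma fits, and 6 with the block. The median log2 fold change of the 40 genes stayed below 0, from -0.24 without NC replicate 2 to -0.02 without NC replicate 1. The cause of these differences was not tested.

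Values of 15 genes that were not called changed sign. With the length trend removed the log2 fold changes were 0.011 for *Irf1*, 0.004 for *Ifit1*, 0.059 for *Igtp*, 0.054 for *Irgm1* and -0.012 for *Parp12*. With GC and length removed they were 0.078 for *Irf1* and 0.063 for *Igtp*. With upper-quartile factors *Irf9* was at -0.001. Under limma at pseudocounts 1 and 0.1 they were 0.032 and 0.032 for *Stat2*, 0.016 and 0.016 for *Ifit1*, 0.022 and 0.023 for *Gbp7*, 0.025 and 0.025 for *Igtp*, 0.024 and 0.024 for *Irgm1*, 0.007 and 0.008 for *Cmpk2* and 0.111 and 0.116 for *Herc6*. Summed with *Irgm2*, *Igtp* was at 0.088. With libraries left out, values ran from -0.135 to 0.022 for *Irf1*, -0.004 to 0.020 for *Irf9*, -0.119 to 0.092 for *Stat2*, -0.012 to 0.201 for *Oasl2*, -0.133 to 0.090 for *Ifit1*, -0.427 to 0.041 for *Ifit2*, -0.081 to 0.051 for *Gbp7*, -0.124 to 0.092 for *Igtp*, -0.091 to 0.073 for *Irgm1*, -0.289 to 0.156 for *Mx1*, -0.167 to 0.322 for *Mx2*, -0.442 to 0.059 for *Rsad2*, -0.320 to 0.285 for *Cmpk2*, -0.247 to 0.082 for *Herc6* and -0.044 to 0.090 for *Parp12*. The 9 genes called lower kept their sign in every alternative.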
